A study of Rattus rattus with 18 samples.

Results

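The data described here are the miRNA profiles of the brain of sham-operated rats, in which a core region was compared with a peri region of the same animal. The members are 6 of the 18 arrays of the series, 3 titled core and 3 titled peri, each pair coming from 1 of 3 rats. All rats were male Sprague Dawley animals, and their age is not given in the sources used here. The sham-operated rats underwent the surgery without occlusion of the artery, and no unoperated rats were measured, so anaesthesia and surgery are shared by all groups. Where the sham regions are set against injured tissue, the other groups are 3 rats with transient middle cerebral artery occlusion (tMCAO), in which a filament closes the artery and is then withdrawn, and 3 rats labelled remote limb postconditioning (PostC). Each of those groups again had 1 core and 1 peri array per rat.

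In an injured hemisphere the core is the tissue that dies first, and the surrounding tissue is the penumbra. In sham-operated rats the names mark only the place of dissection. The sample labels call the core tissue temporo-parietal cortex and the peri tissue striatum, whereas the study's methods assign the striatum to the core and the cortex to the penumbra. The regions are therefore called core and peri throughout.

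A miRNA is a short RNA cut from a hairpin precursor, and either the 5p or the 3p strand of that hairpin can be loaded into the silencing complex. Base pairing of its seed with a messenger RNA leads to repression of that messenger, so miRNAs with the same seed can share targets. In the brain, particular miRNAs are known to be abundant in neurons (miR-124, miR-128), in oligodendrocytes that form myelin (miR-219, miR-338), in endothelium (miR-126) and in red blood cells (miR-451).

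The following targets of the array probes are printed to compare miRNAs of the largest regional differences with family members and partner arms that had smaller ones. The seed, bases 2 to 8 counted from the 5′ end, is in capitals. The first 3 show that the members of the miR-29 family share a seed while their remaining bases differ. The next pair shares the seed of the miR-15/16 family, and the pairs after it are the 5p and 3p arms of the miR-338, miR-9a and miR-132 hairpins, whose arms had unlike differences. Next stand miR-219a-5p, the pair miR-135a-5p and miR-135b-5p, and 4 miRNAs that were lower in core or had unlike values in injured rats.
miR-29a-3p: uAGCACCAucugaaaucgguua
miR-29b-3p: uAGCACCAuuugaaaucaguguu
miR-29c-3p: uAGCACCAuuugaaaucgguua
miR-15a-5p: uAGCAGCAcauaaugguuu
miR-16-5p: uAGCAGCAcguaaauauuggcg
miR-338-3p: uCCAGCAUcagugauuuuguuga
miR-338-5p: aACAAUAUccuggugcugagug
miR-9a-3p: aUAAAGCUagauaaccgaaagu
miR-9a-5p: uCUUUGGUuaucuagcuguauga
miR-132-3p: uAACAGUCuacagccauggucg
miR-132-5p: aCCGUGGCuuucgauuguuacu
miR-219a-5p: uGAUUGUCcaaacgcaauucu
miR-135a-5p: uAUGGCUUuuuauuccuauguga
miR-135b-5p: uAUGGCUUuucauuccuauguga
miR-21-5p: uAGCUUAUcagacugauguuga
miR-181a-2-3p: aCCACCAAccguugacugu
miR-3473: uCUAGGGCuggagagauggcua
miR-3596b: aACUAUGCaaccuacuaccu

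Each array carried 761 rat miRNA probes in 4 spots each. A probe counted as detected on an array where the median of its spots was more than 3 scaled median absolute deviations brighter than the typical one of 612 empty spots. By this limit the core arrays of rats 1, 2 and 3 detected 336, 480 and 509 miRNAs, and the peri arrays 471, 318 and 354. The limit was 161, 58.5 and 49.1 units on these core arrays and 84.9, 171 and 131 units on the peri arrays. The number detected fell with every rise of the limit, so region and limit cannot be told apart in these counts. The core-minus-peri gap was -135, 162 and 155 miRNAs, a mean of 60.7 ± 169 (SD, n = 3 rats), so its direction was not the same in all rats (two-sided exact sign-flip permutation test, p = 0.5, where 3 rats allow no p under 0.25). In all, 304 miRNAs were detected on all 6 arrays and 209 on none. The 433 detected on at least 3 arrays were tested. No miRNA spot on these arrays was brighter than 39745 units.

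The core array of rat 2 stood apart from the others. Across the 433 miRNAs the peri arrays had Pearson correlations of 0.949 to 0.970 with each other, and the core arrays of rats 1 and 3 of 0.981. Core and peri correlated by 0.974 in rat 1 and 0.947 in rat 3. The core array of rat 2 correlated by 0.808 to 0.895 with the other sham arrays. The control probes a-PUC2MM2d, a2-PUC2MM-20B and a3-PUC2MM-20B read 32538, 15349 and 14336 units on it, against at most 829, 1011 and 684 units on the other 17 arrays, whereas the control a-PUC2PM read 44753 units, within the range of the others. In rat 2 the core-minus-peri differences had an SD of 0.98 on the log2 scale, against 0.45 in rat 1 and 0.65 in rat 3, and 77 miRNAs differed by more than 2-fold, against 20 and 43. The part of this array in the results was not tested, and values without rat 2 are given where they differ most. With that array alone left out and the rest fitted without the block, an alternative chosen after seeing the data, 14 of the 20 miRNAs named in the following paragraphs had differences smaller by over 1.5 times, among them miR-338-3p (1.34 in place of 2.19), miR-15a-5p (0.74 in place of 1.44), miR-335 (0.53 in place of 1.17) and miR-384-3p (0.39 in place of 1.04).

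**Figure D1:**
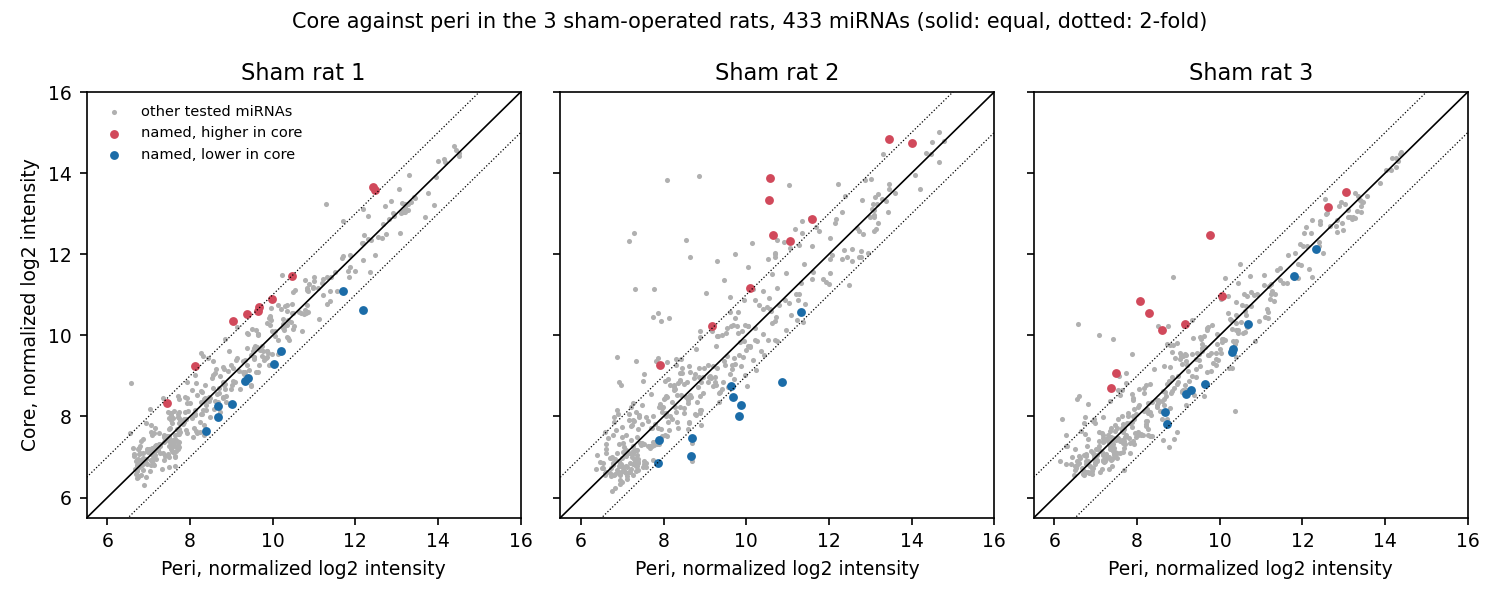
Normalized log2 intensity of 433 miRNAs in core (vertical) against peri (horizontal) in each of the 3 sham-operated rats, with the 10 named miRNAs of each direction coloured. The points scatter most widely in rat 2, where 77 lie outside the dotted 2-fold lines, against 20 in rat 1 and 43 in rat 3.

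Whether the regions of an uninjured brain already differ was asked by comparing core with peri within each rat. Levels are normalized log2 intensities, and a difference of 1 on this scale is 2-fold. No miRNA passed an adjusted p of 0.05 (limma with Benjamini-Hochberg adjustment over 433 miRNAs, smallest adjusted p = 0.114). At an unadjusted p under 0.05 there were 62 miRNAs (14.3%), of which 43 (9.93%) were higher and 19 (4.39%) lower in core. The median difference over the 433 was 0.02, with quartiles of -0.21 and 0.32. In 30 the mean difference exceeded 2-fold, each time higher in core. Without rat 2 this held for 16, of which 15 were higher and 1 lower. For 283 of the 433 (65.4%) the 95% interval of the difference lay within 2-fold in both directions.

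The split between the directions depended on the scaling of the arrays. Of the miRNAs at an unadjusted p under 0.05, 69.4% were higher in core after cyclic loess, 53.8% after quantile normalization and 37.3% after median scaling. Median scaling moved the median of all miRNAs to -0.14, and differences under it are relative to that shift. In 180 of 433 miRNAs (41.6%) all 3 rats had the same direction, 95 (21.9%) higher and 85 (19.6%) lower in core. The 3 core arrays lay entirely above or below the 3 peri arrays in 58 miRNAs (13.4%).

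The 10 miRNAs named as higher in core, chosen by the lowest p among those detected on all 6 arrays with 1 direction in all rats, had mean differences of 0.77 to 2.34, and none passed the adjustment (adjusted p 0.114 to 0.12 in limma). They were chosen by p and direction, so their shared direction is not a result. In 9 of the 10 the difference exceeded 2-fold, and in 7 without rat 2.

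miR-338-3p, which is processed from an intron of the gene Aatk and promotes the maturation of oligodendrocytes, measured 10.70, 13.33 and 10.85 in the core of rats 1, 2 and 3, and 9.68, 10.55 and 8.08 in peri. All 3 core values lay above all 3 peri values. Core exceeded peri by 2.19 (standard error 0.40, 95% interval 1.23 to 3.15), 4.56-fold, with an adjusted p of 0.114 in limma, and by 1.89 without rat 2. In a tissue sample, fewer cells of a type and less RNA per cell cannot be told apart.

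The miR-29 family represses collagens and other matrix genes, and becomes abundant as neurons mature. miR-29b-3p measured 11.46, 13.88 and 12.47 in core and 10.46, 10.56 and 9.78 in peri, again without overlap. The difference was 2.34 (standard error 0.44, 95% interval 1.30 to 3.38, adjusted p = 0.114 in limma), 5.06-fold, and it was 1.85 without rat 2. miR-29c-3p measured 13.66, 14.85 and 13.16 in core and 12.42, 13.46 and 12.62 in peri, a difference of 1.06 (standard error 0.21), or 0.89 without rat 2. For miR-29c-3p the regions overlapped because rat 2 was high in both. miR-29a-3p, by contrast, measured 14.66, 15.02 and 14.16 in core and 14.38, 14.66 and 14.28 in peri, a difference of 0.17 with a 95% interval of -0.17 to 0.52, and -0.01 under median scaling. The targets of miR-29a-3p and miR-29c-3p differ by 1 base, so their probes may share signal.

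miR-15a-5p, a repressor of cell cycle genes and of Bcl2, measured 10.60, 12.48 and 10.14 in core and 9.65, 10.64 and 8.60 in peri. Rat 2 was the highest in both regions, and within each rat core was the higher. On average core exceeded peri by 1.44 (standard error 0.28), with an adjusted p of 0.114 in limma, and by 1.25 without rat 2. miR-335, from an intron of the imprinted gene Mest, measured 10.53, 12.32 and 10.27 in core and 9.38, 11.07 and 9.16 in peri. Its differences of 1.15, 1.25 and 1.11 in the 3 rats were the closest to each other of the 10, and its mean was 1.17, or 1.13 without rat 2.

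The 3p arm of miR-9a, which lowers a cofactor of the neuronal repressor REST, measured 13.59, 14.74 and 13.54 in core and 12.47, 14.02 and 13.07 in peri. The differences of the 3 rats were 1.12, 0.72 and 0.48, with a mean of 0.77 (standard error 0.18) and an adjusted p of 0.12 in limma. miR-340-5p measured 9.24, 11.17 and 9.07 in core and 8.12, 10.09 and 7.48 in peri, and its difference was 1.26. miR-384-3p measured 10.90, 12.88 and 10.96 in core and 9.99, 11.59 and 10.05 in peri, a difference of 1.04. In each of these 3 miRNAs the regions overlapped between rats and rat 2 was the highest in both regions.

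The remaining members of the 10 were miR-3473 and miR-762. miR-3473 measured 10.36, 10.22 and 10.55 in core and 9.05, 9.16 and 8.29 in peri, without overlap. Core exceeded peri by 1.54 (standard error 0.33), with an adjusted p of 0.114 in limma, and by 1.78 without rat 2. miR-762 measured 8.34, 9.26 and 8.71 in core and 7.45, 7.91 and 7.37 in peri, also without overlap, a difference of 1.19, or 1.11 without rat 2, which was the highest in both regions. The target of miR-762 has the highest GC content of the 10, 83.3%.

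**Figure D2:**
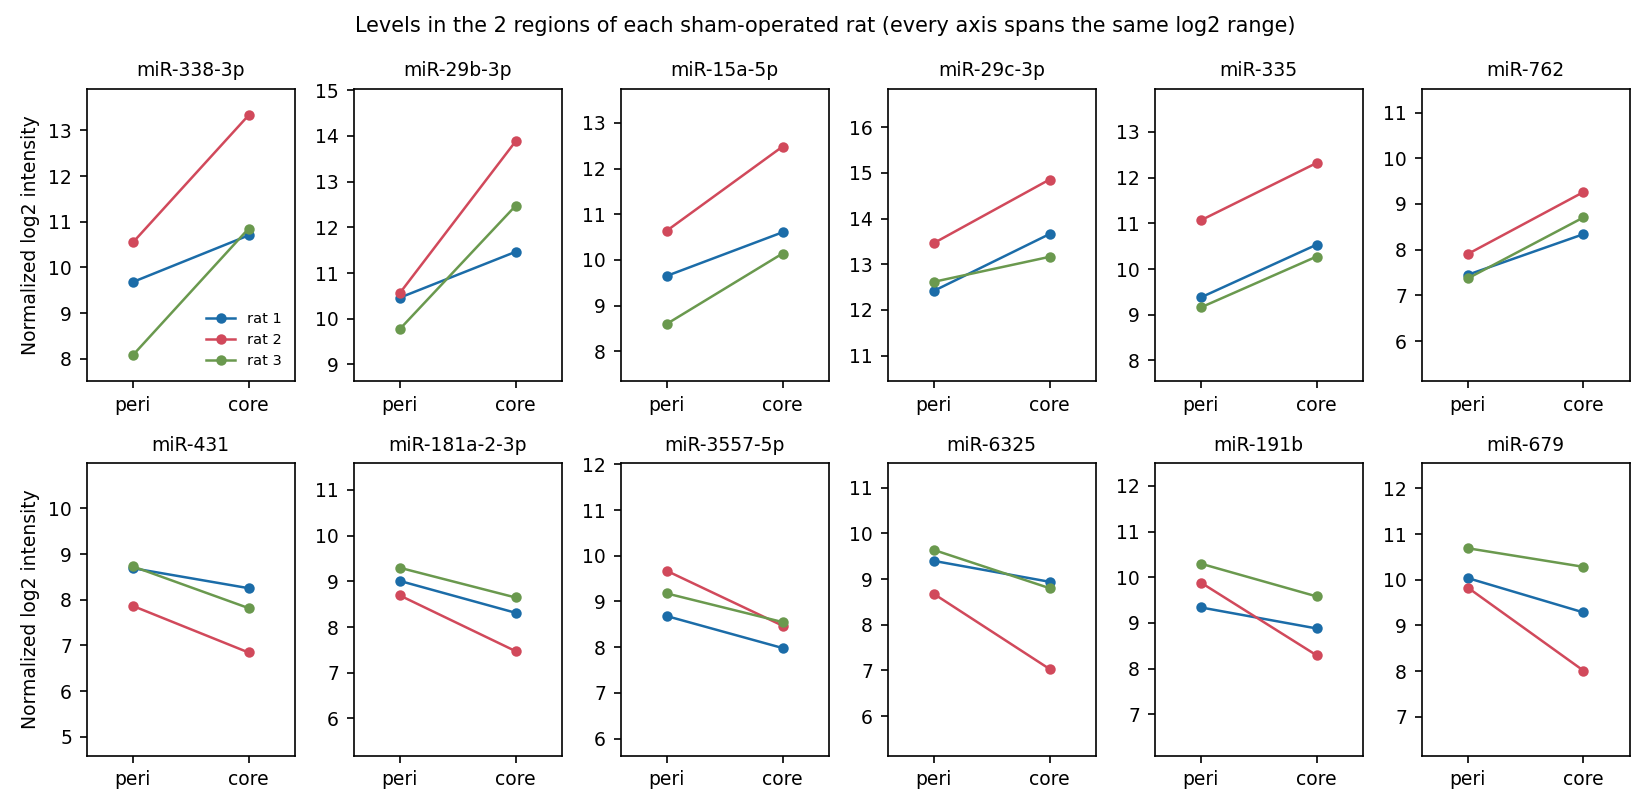
Normalized log2 intensity in the peri and core region of each sham-operated rat, joined by a line per rat, for the 6 miRNAs of lowest p in each direction. Lines of the upper row all climb from peri to core and those of the lower row all descend, by selection, and rat 2 is the highest in core in 6 of 6 panels of the upper row.

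The 10 miRNAs named as lower in core had differences of -0.99 to -0.60, and none passed the adjustment (adjusted p 0.206 to 0.296 in limma). None reached 2-fold. Without rat 2 the differences ranged from -0.88 to -0.48.

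miR-21-5p, a miRNA known for its induction in reactive glia, measured 10.62, 10.58 and 12.13 in core and 12.18, 11.33 and 12.33 in peri. Core was the lower in every rat, by 1.55, 0.75 and 0.20, while the regions overlapped between rats. Its mean difference was -0.83 (standard error 0.30, 95% interval -1.55 to -0.12), -0.88 without rat 2 and -0.47 without rat 1. The array detected its 3p arm, miR-21-3p, on 1 of 6 sham arrays, and it was not tested.

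miR-181a-2-3p, the less abundant strand of a miR-181a hairpin, measured 8.31, 7.47 and 8.65 in core and 9.01, 8.69 and 9.30 in peri. All core values lay below all peri values, and the mean difference was -0.85 (standard error 0.27), or -0.67 without rat 2. The mature miR-181a-5p measured 13.38, 13.36 and 13.32 in core and 13.44, 13.28 and 13.42 in peri, a difference of -0.02 with a 95% interval of -0.39 to 0.34, which turned positive with the GC trend removed. miR-3557-5p was the other lower miRNA without overlap, at 7.98, 8.47 and 8.55 in core and 8.68, 9.67 and 9.17 in peri.

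miR-328a-3p, a repressor of the secretase Bace1, measured 11.08, 8.85 and 11.46 in core and 11.69, 10.86 and 11.81 in peri. Its difference was -2.00 in rat 2 and -0.61 and -0.34 in the other rats, so the mean of -0.98 became -0.48 without rat 2. miR-679 had differences of -0.75, -1.82 and -0.41, miR-6325 of -0.46, -1.64 and -0.84, and miR-191b of -0.46, -1.59 and -0.72. In these 4 miRNAs rat 2 gave the largest difference, and without it the means of miR-679, miR-6325 and miR-191b were -0.58, -0.65 and -0.59 in place of -0.99, -0.98 and -0.92. miR-431, from the imprinted Dlk1-Dio3 locus, had differences of -0.44, -1.02 and -0.91, and miR-346, from an intron of the glutamate receptor gene Grid1, of -0.57, -0.89 and -0.65. miR-3596b had differences of -0.75, -0.49 and -0.56. Its target is the exact reverse complement of 20 bases of let-7d-5p, which had the opposite sign, 0.40 with a 95% interval of -0.09 to 0.88.

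Rat 2 gave the largest absolute difference in 7 of the 10 higher and 8 of the 10 lower miRNAs, and in 224 of all 433 (51.7%). The named miRNAs also differed in base composition. The median GC content of the targets was 35.6% in the 10 higher and 52.5% in the 10 lower miRNAs, and 47.8% in the 433 tested. Across the 433, grouped by GC content, the median difference was 0.35 under 40% GC (83 miRNAs), 0.08 from 40 to 50% (138 miRNAs), -0.14 from 50 to 60% (147 miRNAs) and -0.02 from 60% (65 miRNAs). Without rat 2 the medians were 0.29, 0.09, -0.12 and -0.07. With the GC trend removed, none of the 20 changed direction, while miR-384-3p moved from 1.04 to 0.64 and miR-9a-3p from 0.77 to 0.49. The part of base composition in the differences was not tested beyond this.

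**Figure D3:**
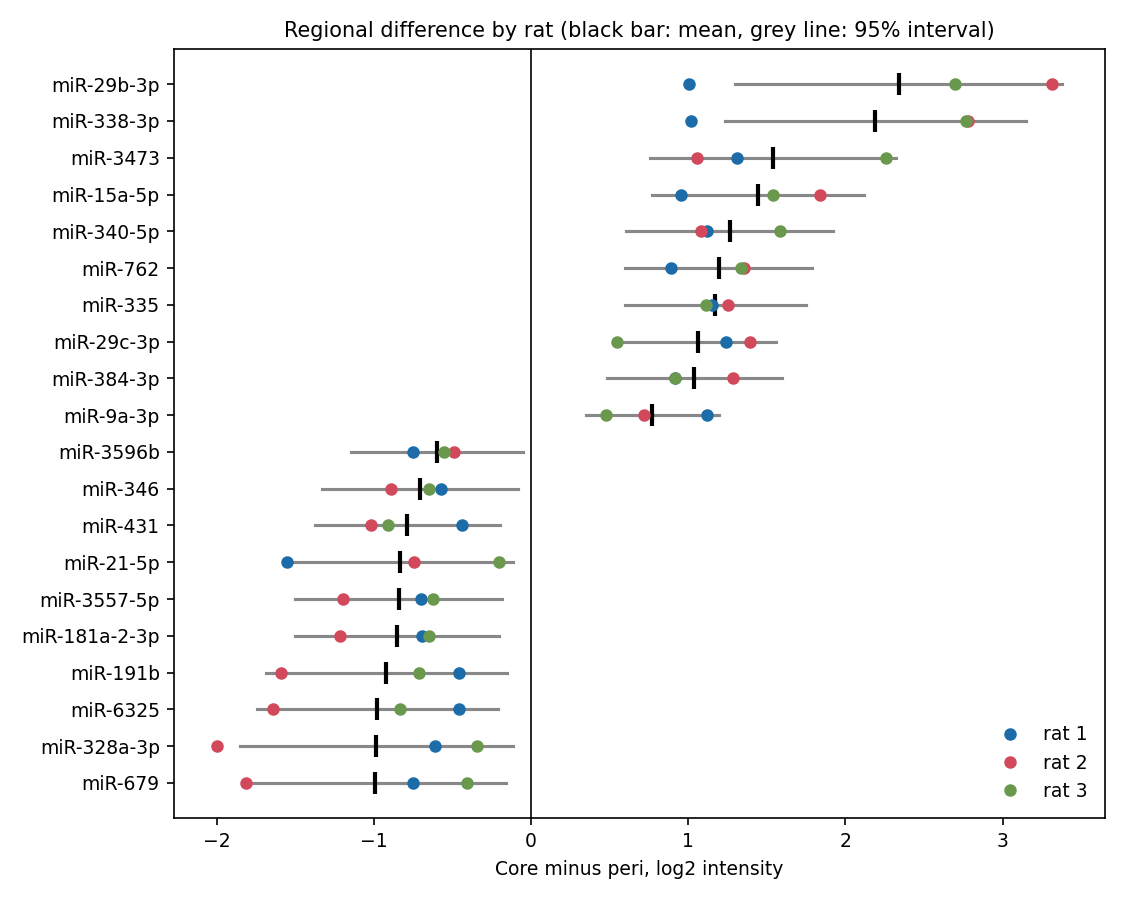
Core minus peri on the log2 scale for the 20 named miRNAs, with a point per sham-operated rat, a black bar at the mean and a grey line for the 95% interval of the limma fit. The means run from -0.99 for miR-679 to 2.34 for miR-29b-3p, and rat 2 is the outermost point in 15 of the 20.

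The miRNAs were also examined as 13 lists of markers of cell types and regions, with 73 distinct miRNAs. A further 6 lists hold 5 miRNA families and the Dlk1-Dio3 locus, with 60. The lists include miR-338-3p, miR-9a-3p, miR-29b-3p, miR-29c-3p and miR-431, which were already named and enter the counts here. Of the markers, 47 were tested, and 9 of these (19.1%) were higher and 0 lower in core at an unadjusted p under 0.05, against 9.93% and 4.39% of all 433. Of the family and locus members, 56 were tested, with 13 (23.2%) higher and 1 lower. Among miRNAs detected on all 6 arrays, which cannot have entered the test through core alone, 6 of 37 markers (16.2%) and 10 of 51 family and locus members (19.6%) were higher, against 31 of 304 (10.2%). None passed the adjustment in limma. The lists were chosen with earlier results known, so these shares are a description. Members named beyond the 4 brightest of a list, among them let-7a-5p, let-7d-5p, miR-98-5p, miR-30e-5p, miR-144, miR-155-5p, miR-322-5p and miR-369-3p, were chosen after their values were seen.

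Of the 6 miRNAs known from oligodendrocytes and myelin, 5 were tested, and 2 were higher in core at an unadjusted p under 0.05. The median was 0.26, against 0.02 over all miRNAs. Besides miR-338-3p this was miR-219a-5p, which measured 8.08, 11.14 and 8.42 in core and 7.52, 7.77 and 6.54 in peri. Core exceeded peri by 1.94, with an adjusted p of 0.158 in limma, and by 1.22 without rat 2, and the miRNA was detected on 2 of 3 peri arrays. The brightest member, miR-219a-2-3p, did not follow, with 11.19, 11.88 and 11.03 in core, 10.98, 12.03 and 11.25 in peri, and a difference of -0.05 (95% interval -0.59 to 0.49). The 5p arm of miR-338 had a difference of 0.26 (95% interval -0.36 to 0.87), which was -0.08 under median scaling. Summed over the list on a linear scale, the level was 5183, 17786 and 5113 units in core and 3773, 7093 and 3555 units in peri.

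These values bear on the conflict between the labels and the study's methods but do not settle it. Bundles of myelinated fibres cross the striatum, and a strip of white matter underlies the cortex, so the myelin miRNAs can differ with either assignment and with the depth of the cut. No list sets cortex against striatum directly, and the labelled tissue could not be checked against a defining marker. The miRNAs miR-10a, miR-10b and the miR-196 group are those of the hindbrain and spinal cord. They served as a check of the tissue at large, not of cortex against striatum. Of these 5, none was detected on more than 1 array, and 4 were detected on none. Of 8 miRNAs of epithelium and olfactory bulb, 7 were detected on no array, and the exception, miR-182, had a difference of -0.64 (adjusted p = 0.41 in limma).

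Of 9 miRNAs abundant in neurons, all were tested and 1, miR-9a-3p, was higher in core at an unadjusted p under 0.05. The list had a median of 0.16, or 0.08 without rat 2. miR-128-3p measured 14.50, 14.47 and 14.47 in core and 14.50, 14.47 and 14.37 in peri. miR-124-3p measured 14.35, 13.95 and 14.09 in core and 14.15, 14.08 and 14.14 in peri. The 95% intervals of their differences, -0.26 to 0.33 and -0.33 to 0.34, lay well within 2-fold. The sign of both mean differences, 0.03 and 0.01, turned negative under quantile normalization and median scaling, as did that of miR-9a-5p, 0.02. Of 7 miRNAs listed for the hippocampus none reached an unadjusted p of 0.05 (median -0.11, or -0.06 without rat 2), and miR-26a-5p, miR-138-5p and miR-221-3p had differences of -0.11, -0.43 and -0.17, or 0.03, -0.19 and -0.20 without rat 2.

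Of 4 miRNAs induced by neuronal activity through CREB, only miR-132-5p reached an unadjusted p under 0.05, at 10.76, 11.94 and 10.37 in core and 10.14, 10.70 and 9.33 in peri. Core exceeded peri by 0.97 (standard error 0.26), with an adjusted p of 0.158 in limma, or by 0.83 without rat 2. Its partner from the same hairpin, miR-132-3p, had a difference of -0.09 (95% interval -0.54 to 0.36), and miR-212-3p and miR-212-5p of -0.10 and -0.32. Without rat 2 these 3 were 0.16, 0.09 and -0.15. The list median was -0.10, and 0.12 without rat 2.

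The red blood cell list was small. Both detected members, of 4 on the array, were higher in core at an unadjusted p under 0.05. miR-451-5p measured 11.11, 12.00 and 11.41 in core and 10.83, 10.71 and 10.13 in peri, without overlap, a difference of 0.95 (adjusted p = 0.205 in limma) and 0.78 without rat 2. miR-486 had a difference of 0.43 but was detected on only 3 arrays, and miR-144-3p and miR-144-5p were detected on none. The summed level of the list was 2508 to 4360 units in core and 1377 to 2078 units in peri. Of 5 vessel miRNAs, 4 were tested and the endothelial miR-126a-3p was higher in core at an unadjusted p under 0.05, by 0.57 (standard error 0.17) and 0.43 without rat 2, whereas miR-143-3p and miR-145-5p, which mark smooth muscle, had differences of -0.07 and -0.23, or 0.00 and -0.12 without rat 2. The median of the vessel list was -0.07, or 0.04 without rat 2. The summed vessel level was 18354 to 21620 units in core and 15691 to 18390 units in peri. Whether residual blood or vessel content has a part in the other differences was not tested.

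In the remaining cell type lists few members differed. Of 6 leukocyte miRNAs 3 were tested, with miR-150-5p and miR-146a-5p at 0.02 and 0.03, both below 0 under quantile normalization and median scaling, and miR-142-5p at 0.43 (adjusted p = 0.3 in limma). Without rat 2 these were 0.16, 0.17 and 0.26. Of the leukocyte miRNAs, miR-142-5p was detected on only 1 of 3 peri arrays and miR-155-5p on no sham array. Of 10 miRNAs of choroid plexus and ependyma 5 were tested, and none reached an unadjusted p under 0.05. The choroid plexus miRNA miR-204-5p measured 9.46, 12.00 and 9.94 in core and 9.54, 9.73 and 9.35 in peri. Its difference of 0.93 rested on rat 2, without which it was 0.26, and the list median of 0.15 became -0.23. Of 6 muscle miRNAs 4 were tested, with differences from -0.18 for miR-1-3p to 0.35 for miR-499-5p, or -0.57 and 0.74 without rat 2. The 3 hypothalamus and pituitary miRNAs ranged from -0.30 for miR-375-3p to 0.79 for miR-7b, which was 0.28 without rat 2. Both miR-375-3p and miR-7b were detected on only 1 of 3 peri arrays. Of the 3 listed for the cerebellum miR-195-5p had 0.70 and an unadjusted p under 0.05, miR-497-5p had 0.10 and miR-206-3p had 0.40. Without rat 2 these were 0.37, 0.24 and -0.08. The difference of miR-497-5p turned to -0.03 under quantile normalization and to -0.23 under median scaling. The list median was 0.40, or 0.24 without rat 2.

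A single miRNA, miR-135a-5p, was detected on all 3 core arrays and no peri array, and no miRNA showed the reverse. The miR-135 family represses the serotonin transporter. miR-135a-5p measured 7.58, 12.32 and 6.91 in core, so its mean rests on rat 2, and 6.56, 7.15 and 6.14 in peri. The regions overlapped, since peri rat 2, counted as not detected, lay above core rat 3, counted as detected. The limits of these arrays were 171 and 49.1 units before normalization, so the pattern depends on the limit of each array. The miRNA entered the test (adjusted p = 0.253 in limma) through its core arrays alone. Its peri values are not above the detection limit, so no size is given for its difference. miR-135b-5p, whose target differs by 1 base, measured 7.85, 10.56 and 7.54 in core and 6.93, 7.87 and 6.27 in peri, a difference of 1.63, with an adjusted p of 0.114 in limma, and 1.10 without rat 2. It was detected on 2 of 3 peri arrays.

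Families that share a seed were not uniform. In the miR-15/16 family, of 6 members detected on all arrays, the differences ran from -0.39 for miR-15b-5p to 1.44 for miR-15a-5p, with 0.96 for miR-322-5p, 0.70 for miR-195-5p and 0.37 for miR-16-5p. Without rat 2 that of miR-15b-5p was -0.21 and that of miR-195-5p was 0.37. In the let-7 family of 9, let-7g-5p, let-7i-5p, let-7c-5p and let-7f-5p had 0.09, 0.00, 0.11 and 0.44, and the signs of let-7g-5p and let-7c-5p turned under median scaling. Without rat 2 the 4 had 0.00, -0.09, 0.18 and 0.29. Only miR-98-5p of that family reached an unadjusted p under 0.05, at 1.35 and 0.77 without rat 2, and let-7a-5p had -0.25 with all rats and 0.25 without rat 2. The 5 miR-30 members with their own name had differences from 0.17 for miR-30c-5p to 0.92 for miR-30e-5p (0.62 without rat 2), of which those of miR-30c-5p and miR-30d-5p turned to -0.03 and -0.05 under median scaling, and 3 reached an unadjusted p under 0.05. Their median of 0.57 was 0.27 without rat 2. The sixth miRNA with that seed, miR-384-5p, had -0.11, or 0.20 without rat 2. In the miR-181 family miR-181d-5p had 1.21 and miR-181c-5p 0.69, while miR-181b-5p had 0.40. Without rat 2 these were 0.76, 0.45 and 0.31. In these 5 families, with the miR-29 family, rat 2 gave the largest absolute difference in 19 of 28 members, against 51.7% of all miRNAs tested.

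Imprinted miRNAs of the Dlk1-Dio3 locus, a large neuronal cluster, gave a further view of a set. Of 34 on the array, 33 were tested, with 3 higher and 1 lower in core at an unadjusted p under 0.05 and a median of -0.10, or -0.03 without rat 2. The 4 brightest, miR-127-3p, miR-487b-3p, miR-495 and miR-434-3p, had differences of -0.11, -0.30, -0.13 and -0.35, or -0.21, -0.20, -0.07 and -0.50 without rat 2, and that of miR-127-3p was 0.00 with the GC trend removed. The extremes, named after their values were seen, were miR-369-3p at 1.61 (0.77 without rat 2) and miR-431 at -0.79.

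The 2 arms of a hairpin come from the same transcript, so their differences can be set side by side. For 59 miRNA names both arms were detected on all 6 arrays. The difference had the same sign in both arms for 36 of them, and across the 59 the differences of the arms had a Pearson correlation of -0.0024 and a Spearman correlation of 0.22, a description in which the points share the same 6 arrays. In 9 the arms differed by more than 1 on the log2 scale, and these were chosen for that gap. For miR-29b the 5p arm had -0.19 and the 3p arm 2.34, for miR-338 the arms had 0.26 and 2.19, and for miR-132 they had 0.97 and -0.09. For miR-140 the arms had 0.67 and -0.37. The gap had the same sign in every rat for 8 of the 9, the exception being miR-149 with gaps of -0.64, -2.68 and 0.08. The widest gap, 2.82 for miR-328a, rested on rat 2, in which it was 7.06, against 1.07 and 0.35 in the other rats. Mature miR-29b-3p can come from either of 2 hairpins, so its 5p partner on the array is not its only one.

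**Figure D4:**
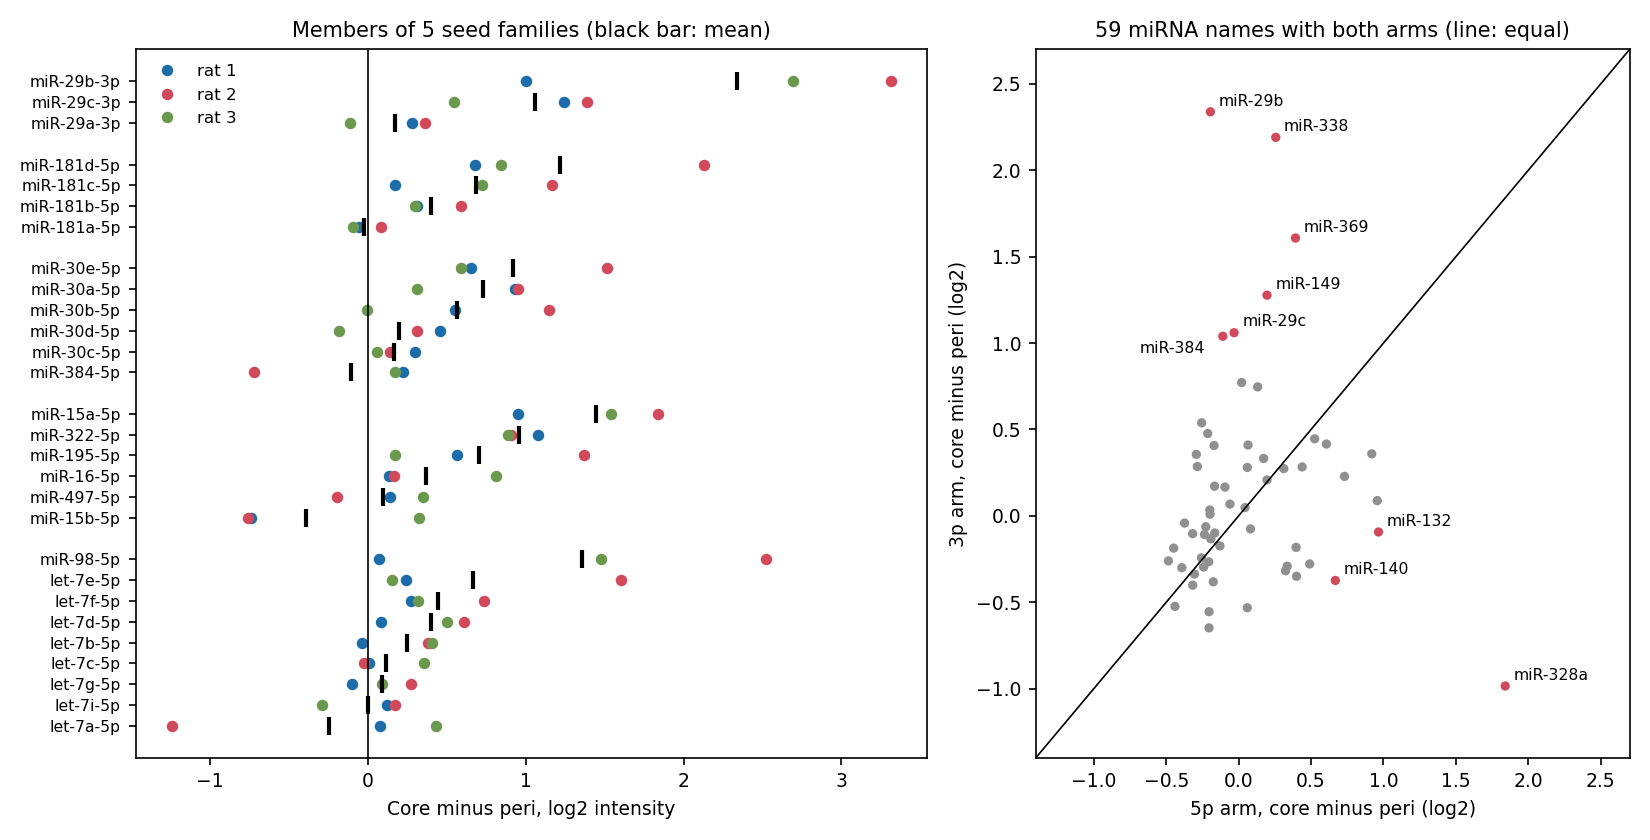
Left, core minus peri on the log2 scale for members of 5 seed families, with a point per sham-operated rat and a black bar at the mean. Right, the difference of the 3p arm against that of the 5p arm for 59 miRNA names, with the 9 whose arms differ by more than 1 in red and named. The means spread from -0.39 to 1.44 in the miR-15/16 family and from 0.17 to 2.34 in the miR-29 family, and the red points lie far from the line of equal arms.

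Whether the sham difference was also present in injured brain was asked by comparing the core-minus-peri differences of 3 sham rats with those of 3 tMCAO and 3 PostC rats. Both comparisons use the same sham rats. No miRNA passed the adjusted threshold in either (limma with Benjamini-Hochberg adjustment), and 40 (9.24%) against tMCAO and 49 (11.3%) against PostC had an unadjusted p under 0.05. The named miRNAs were chosen for their sham difference, so a smaller difference elsewhere is partly a result of that choice. The same holds where every sham rat lies further in its own direction than the rats of the other groups. How often all rats of a group lay apart from all sham rats was not counted over the tested miRNAs, so such separation is a description.

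Among the 10 miRNAs higher in sham core, the tMCAO rats had the same direction in all 3 animals for 2 and the opposite in all 3 for 3. The PostC rats did so for 2 and 4. The 2 that kept their direction were miR-3473 and miR-762. Of all 433 miRNAs, 180 had 1 direction in the sham rats. Of these 180, 37 had the same and 46 the opposite direction in all tMCAO rats, and 14 and 18 in all PostC rats. For miR-3473 the tMCAO differences were 4.93, 5.43 and 4.52, all above the 1.31, 1.06 and 2.26 of the sham rats, and the groups differed by 3.42 (standard error 1.13, adjusted p = 0.415 in limma). With only the 2 groups compared in the fit, which leaves out the spread of the PostC rats, the same difference passed, with an adjusted p of 0.0423 in limma. For miR-762 the tMCAO differences were 2.78, 3.41 and 4.40, and the groups differed by 2.34 (adjusted p = 0.415 in limma).

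miR-338-3p, in contrast, had differences of 0.22, -1.20 and 0.11 in tMCAO and -3.47, -0.85 and -0.55 in PostC rats. All 3 sham rats lay above all rats of both other groups, which is partly a result of the choice by sham difference. miR-29b-3p had 0.31, -1.98 and -0.01 in tMCAO rats and -4.46, -0.69 and -0.20 in PostC rats, also below every sham rat. Neither miRNA passed in the test of the difference between groups (adjusted p = 0.415 against tMCAO and 0.293 against PostC in limma).

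Of the 10 miRNAs lower in sham core, 4 had the same direction in all tMCAO rats (miR-181a-2-3p, miR-191b, miR-679 and miR-3596b) and 1, miR-21-5p, the opposite. In the PostC rats 0 had the same direction in all animals and 2 the opposite, miR-21-5p and miR-181a-2-3p. Of all 180 miRNAs with 1 direction in sham, 37 had the same and 46 the opposite in tMCAO, and 14 and 18 in PostC. The differences of miR-21-5p were -1.55, -0.75 and -0.20 in sham, 2.80, 0.67 and 2.48 in tMCAO and 2.44, 0.30 and 3.45 in PostC rats. The sham rats lay below all rats of both other groups, again partly through the choice by sham difference. The values of the tMCAO and PostC rats overlapped each other. The difference from sham was 2.82 for tMCAO (standard error 0.93, adjusted p = 0.415 in limma) and 2.90 for PostC (adjusted p = 0.293 in limma).

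**Figure D5:**
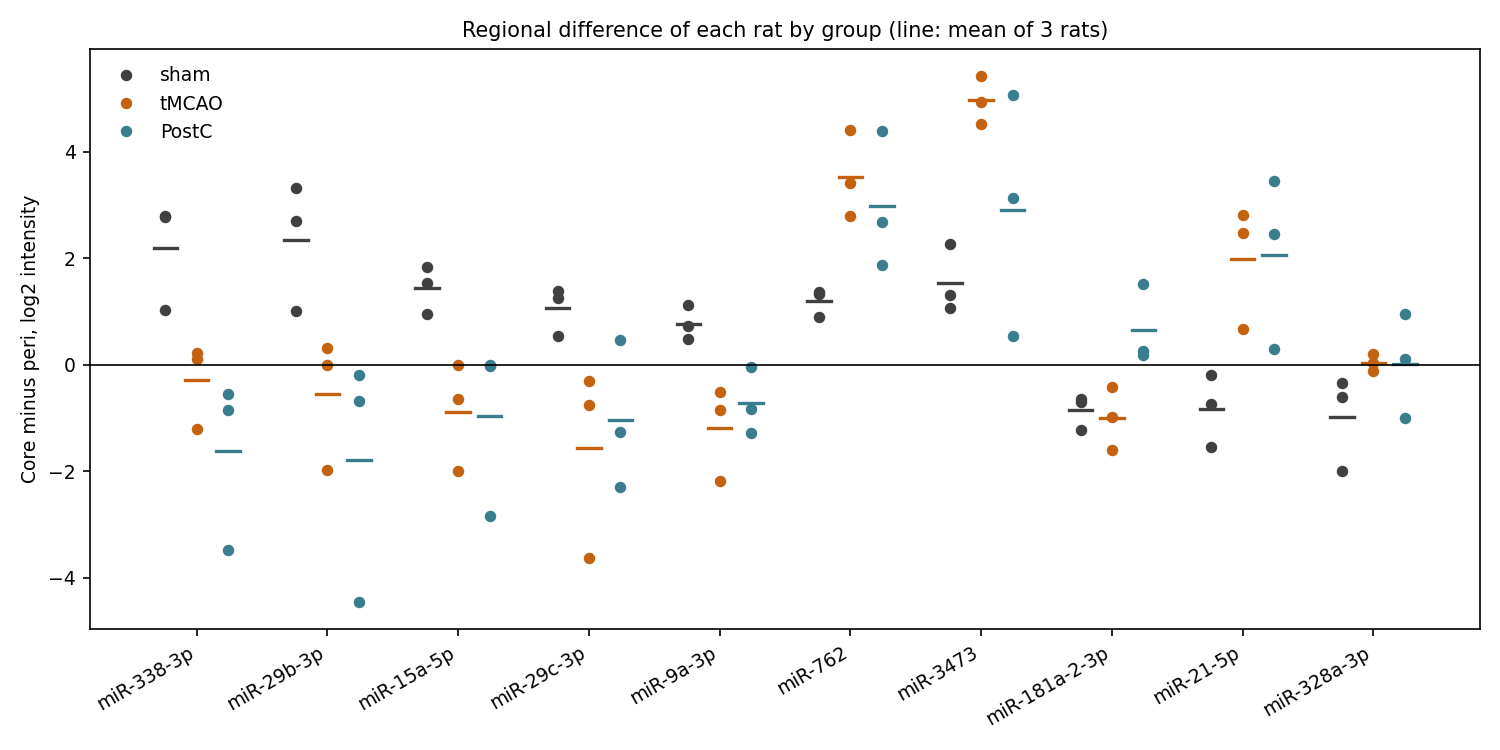
Core minus peri on the log2 scale in each of 3 sham, 3 tMCAO and 3 PostC rats for 10 of the named miRNAs, with a point per rat and a line at the mean of each group. For miR-338-3p and miR-29b-3p the sham rats lie above the other groups, for miR-21-5p they lie below 0 and the others above, and for miR-3473 the tMCAO rats lie at 4.52 to 5.43, above every sham rat, with 1 PostC rat among them.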

How the data were processed

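Total RNA of core and peri tissue was labelled with Cy5 and hybridised by a service provider to single-colour microfluidic arrays, which were scanned and quantified before deposit. The deposited spot intensity is a median pixel value without background subtraction or normalization. A second deposited table holds the authors' normalized intensity of the same arrays and served as an alternative. Starting from the deposited intensities, normexp (offset 50) over all spots corrected the background, and miRNA spots were put on a log2 scale, normalized by cyclic loess over all 18 arrays and averaged over 4 spots. The number of arrays limits the precision.

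miRNAs detected on at least 3 of the 6 sham arrays were tested in R 4.3.3. The limma 3.58.1 model held the rat as a block, eBayes allowed the variance to follow the mean level, and p-values were adjusted by Benjamini-Hochberg with a threshold of 0.05. The rat pairs the arrays, being the same animal: the deviations of core and peri from their group means correlated by 0.165, 0.491 and 0.283 in rats 1, 2 and 3. The sham arrays alone were fitted on the premise that injured groups vary more between rats. This did not hold throughout, since the correlation between rats was 0.871 to 0.981 in sham core and 0.961 to 0.975 in tMCAO peri. Differences between groups were tested on the core-minus-peri differences of 9 rats. Scripts were tested on simulated data.

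The members, the lists and the tests were chosen with earlier results of these data known. Named miRNAs are 10 per direction, detected on all 6 sham arrays with the same direction in 3 rats. They are those past the threshold, or, where fewer pass, those of lowest unadjusted p. Up to 4 of the brightest members were named per list. Alternatives covered background, normalization, filter, GC content, variance, pairing, test and left-out rats. Sequences are the target sequences in the array files, and no genome was used. Figures were drawn with matplotlib 3.10.9.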

Additional observations from a re-analysis of the deposited data

Results flagged for a closer look

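For 7 named miRNAs the core-minus-peri difference had 1 direction in all sham rats and the opposite one in all rats of the tMCAO group, the PostC group or both. Over all 433 miRNAs tested, 180 had 1 direction in all sham rats, and 57 of these (31.7%) had the opposite in all rats of another group, 46 (25.6%) in tMCAO and 18 (10%) in PostC. No test of these differences between groups passed the adjusted threshold (limma, 9 rats, Benjamini-Hochberg adjustment), and both comparisons use the same 3 sham rats.

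Against tMCAO, the difference changed by -2.33 on the log2 scale for miR-15a-5p, by -2.62 for miR-29c-3p and by -1.96 for miR-9a-3p, all higher in core in the 3 sham rats and lower in core in the 3 tMCAO rats. It changed by 2.82 for miR-21-5p, lower in core in all sham rats and higher in all tMCAO rats. For miR-15a-5p the tMCAO differences were -0.01, -2.00 and -0.64, so 1 rat was near 0. Each of the 4 had an adjusted p of 0.415 in limma.

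Against PostC, the change was -3.81 for miR-338-3p, -4.12 for miR-29b-3p, -2.40 for miR-15a-5p and -1.5 for miR-9a-3p. It was 1.5 for miR-181a-2-3p and 2.90 for miR-21-5p, which were lower in core in all sham rats. Each of these 6 had an adjusted p of 0.293 in limma. For miR-15a-5p the PostC differences were -2.85, -0.01 and -0.02, so the opposite direction rests on 1 rat there.

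The control probes a-PUC2MM2d, a2-PUC2MM-20B and a3-PUC2MM-20B, which enter no comparison, read 32538, 15349 and 14336 units on the core array of sham rat 2. The highest reading of each on the other 17 arrays was lower by a factor of 39.2, 15.2 and 21.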

How the results depend on the processing

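In the comparison of sham core and peri the 20 named miRNAs kept their direction in all 22 alternatives (440 values). None passed the adjusted threshold in any. Where an alternative changed only the filter, the variance model, the pairing or the test, the differences themselves stayed as they were. Leaving out a rat could not turn a direction, since the miRNAs were chosen for 1 direction in all rats. With 1 rat left out, miR-338-3p ranged from 1.89 to 2.78. Against the 62 miRNAs at an unadjusted p under 0.05, there were 108 without a detection filter, 23 with the spread shared by 9 rats, 20 by the methods' t-test and 38 by a paired t-test. Leaving out a sham rat gave 34 to 57, with 34 without rat 3. Without the replicate block, which pairs the arrays of a rat, there were 22. The smallest adjusted p, 0.114 as reported, was 0.477 without the block, 0.0587 with robust eBayes and 0.0604 where only miRNAs detected on all 6 arrays were tested, and 0.116 to 0.805 in the other alternatives with all arrays or a rat left out (limma, or a t-test as named). In an alternative chosen after seeing the data, with the core array of rat 2 left out and no block, there were 27, and 1 miRNA passed the adjusted threshold, miR-664-1-5p (adjusted p = 0.0217 in limma), which was detected on 1 of 3 peri arrays. The 20 named differences were then 0.38 to 1.70 and -0.91 to -0.18.

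For sham against tMCAO, 40 miRNAs at an unadjusted p under 0.05 became 73 with median scaling, 63 without a filter and 91 with only the 2 groups compared, where 6 passed the adjusted threshold, the named miR-3473 among them. Leaving out a rat gave 14 to 39, with 19 without sham rat 2 and 14 without tMCAO rat 2, and 0 past the adjusted threshold. For sham against PostC, 49 became 28 to 88, with 30 and 32 without sham rat 2 or 3, and 28, 88 and 87 without PostC rat 1, 2 or 3. The number past the adjusted threshold, 0 with all rats, was 0 to 10, with 10 without PostC rat 2, the named miR-3596b among them (2.08, adjusted p = 0.0399 in limma), and 3 without PostC rat 3. The replicate block changed no call of these comparisons.

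Where the limit for detection was set by the 25% of miRNA spots that were dimmest, the core-minus-peri gap in detected miRNAs was -10.3 in place of 60.7. By the limit from the empty spots, the gap was 10 to 158.5 with a sham rat left out. The cause of these shifts was not tested.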

Other observations

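miR-664-1-5p, named after its values were seen, measured 8.81, 7.85 and 10.27 in the core of sham rats 1, 2 and 3 and 6.56, 6.81 and 6.57 in peri. The core values all lay above the peri values. The miRNA was detected on 3 core arrays and 1 peri array, so it entered the test mainly through core, most of its peri values are not above the detection limit, and no size is given for its difference.

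Across the 433 miRNAs the core-minus-peri differences of the sham rats correlated by 0.28 for rats 1 and 2, 0.35 for rats 1 and 3 and 0.34 for rats 2 and 3 (Pearson, across miRNAs, which are not independent). The same direction in all 3 rats was found in 41.6% of miRNAs in sham, 42.3% in tMCAO and 20.3% in PostC rats.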
